A study of Mus musculus with 6 samples.

Results

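The translation initiation factor genes of mouse macrophages were followed by the counts at the 3′ ends of their mRNAs. The members were the protein-coding genes in the count table whose symbols begin with Eif1 to Eif6. Eif4a3, a subunit of the exon junction complex, the interferon-inducible kinase gene Eif2ak2 and the Y-linked Eif2s3y were left out by that rule. This gave 54 of 21820 protein-coding gene symbols, or of 55254 symbols in all. They had 343 transcripts in the table, and the transcript with the most counts on average stood for each gene. For 49 of the 54 that transcript passed the filter on low counts (above 4.89 normalized counts in at least 1 library), and those 49 were tested.

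Initiation factors bring the ribosome to the start codon of an mRNA. The eIF4F complex binds the cap at the 5′ end, through the cap-binding protein eIF4E, the scaffold eIF4G and the helicase eIF4A, and eIF3 joins it to the small ribosomal subunit. That subunit carries eIF1, eIF1A and the initiator tRNA held by eIF2, scans to the start codon, and is joined by the large subunit with the help of eIF5 and eIF5B. In macrophages exposed to bacterial products this step is a known point of control, through proteins that bind eIF4E and through kinases that phosphorylate eIF2.

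The libraries came from bone marrow-derived macrophages (BMDMs) of C57BL/6J mice aged 6 to 8 weeks, differentiated for 10 days in medium conditioned by L929 fibroblasts and then given 100 ng/ml lipopolysaccharide (LPS, a bacterial cell wall component) for 4 hours. Control BMDMs carried the floxed allele alone (hnRNPDfl/fl, n = 3), and M-Δx3,4 BMDMs carried LysCre in addition (LysCre+hnRNPDfl/fl, n = 3), a Cre that acts in myeloid cells and removes exons 3 and 4 of hnRNPD. All 6 libraries were LPS-treated, so an effect of LPS itself cannot be read from them. hnRNPD encodes AUF1, a family of 4 protein isoforms that bind AU-rich elements in mRNA. The sources do not say whether each library came from a separate animal or pool, so p-values measure the spread between these samples, which may be technical.

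Library totals ran from 5852374 to 9008878 counts over all transcripts, where a read in overlapping transcripts is counted in each. The p37 transcript of Hnrnpd had normalized counts of 177.8, 104.2 and 69.6 in control and of 52.8, 12.6 and 16 in M-Δx3,4 BMDMs. The Hnrnpd transcript with the most counts (ENSMUST00000172361) had 335.9, 185.9 and 104.4 against 137.9, 124.3 and 160.5, with overlapping groups and a log2 fold change of -0.57 (SE 0.41, unadjusted p = 0.183 in edgeR). Reads from the 3′ end do not cover exons 3 and 4, so these counts do not check the deletion itself. The 8 macrophage markers summed to between 6612.9 and 7299.1 in control and between 5532.9 and 7250.1 in M-Δx3,4 libraries. Of these, 1 (Lyz2, log2 fold change -0.91) had an unadjusted p under 0.05 in edgeR, with an adjusted p of 0.985. Whether the LysCre allele itself bears on Lyz2 was not tested. Some other marker lists differed between the groups, with no adjusted p under 0.05. Of the 5 MHC class II and dendritic cell markers 4 were tested, all of class II presentation (H2-Aa, H2-Ab1, H2-Eb1 and Cd74). All 4 had log2 fold changes under 0 and 3 had an unadjusted p under 0.05 (lowest adjusted p 0.825, H2-Aa, edgeR). The list summed to between 188.3 and 365.8 in control and between 74.1 and 98.8 in M-Δx3,4 libraries. In lavage cells the paper gated macrophages, eosinophils and neutrophils as MHC class II positive by flow cytometry. Which cells the class II reads came from was not tested. The B cell list, of which 3 of 5 genes were tested and 1 (Igkc) had an unadjusted p under 0.05, summed to between 299.9 and 352.7 against 139.8 and 164.3. Most of the sum in control was Igkc. Ighm was also lower in every M-Δx3,4 library (log2 fold change -0.70, SE 0.40, unadjusted p = 0.1 in edgeR), while Cd79b had a log2 fold change of 0.39 (SE 0.46) and overlapping groups. The T cell genes Cd3e and Cd3g and the neutrophil gene Elane had no count in any library, but other genes of both lists did. The T cell list summed to between 45.2 and 55.8 in control and between 25.4 and 42.7 in M-Δx3,4 libraries. For the neutrophil list the sums lay between 377.0 and 688.1 in control and between 472.3 and 709.8 in M-Δx3,4 libraries. The fibroblast list summed to 43.0, 26.6 and 1.2 in control and 28.4, 1.9 and 6.1 in M-Δx3,4 libraries. The part of other cell types in the values below was not tested. In bulk samples, fewer cells of a type and less RNA per cell cannot be told apart.

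AU-rich motifs, the sequences AUF1 is known to bind, were looked for in the annotated 3′ UTRs of the members on the transcript strand (GENCODE annotation of mm10). The UTR was that of the gene's most counted protein-coding transcript with an annotated one, which was not always the transcript standing for the gene. Of the 48 members tested that had such a UTR, 30 held the core pentamer ATTTA somewhere in it. For the whole UTR the share over all genes is not given. In the last 300 bases, ATTTA was found in 18 of the 35 members with a UTR that long (51.4%), against 3604 of 8284 genes tested (43.5%). The longer motif TTATTTATT, which contains ATTTA, was in none of those 35 windows and in 2.04% of the 8284. Over the whole UTR it was found in 2 members, Eif2b3 and Eif4ebp1, and these sites are shown because both genes are described below. Each line gives the site with the motif in capitals, 5′ to 3′ on the plus strand of mm10.
Eif2b3, chr4:117086805-117086833: ttttgactctTTATTTATTtttcaataaa
Eif4ebp1, chr8:27276143-27276171: ctccgaaaatTTATTTATTattatatgtt
The Eif2b3 site ended 22 bases before the annotated 3′ end of the mRNA, and the Eif4ebp1 site 513 bases before it. By number of pentamers, not corrected for UTR length, the members led with Eif2s1 (13), Eif4g2 (10), Eif4e (9) and Eif4a2 (8). None of these counts of letters shows binding.

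None of the 49 initiation factors passed edgeR's quasi-likelihood test between M-Δx3,4 and control BMDMs. At an unadjusted p under 0.05 there were 0 of 49, where 3.97% of the 11875 genes tested (472) were called. Under the threshold of the study, which also asks for a log2 fold change of 1 or more in size, there were 0 as well, against 3.07% of all genes. The study set that threshold on a p-value combined from several tools (PANDORA). Here and below, edgeR's unadjusted p or that of the fit named takes its place. Adjusted p-values (Benjamini-Hochberg over all transcripts tested) lay between 0.985 and 0.999 for the members, and no gene in the table had one under 0.05. With other tools, 1 member had an unadjusted p under 0.05 in DESeq2 (Eif3i) and 1 in limma-voom (Eif1ax), that is 2.04% of the 49 against 2.96% and 3.23% of all genes in those fits. The median log2 fold change of the members was 0.11, with 30 above 0 and 19 below, against -0.01 over all genes. The 95% interval of the log2 fold change lay within 1 unit on either side of 0 for 15 of the 49. For the other 34 it reached past 1 or -1, so their intervals did not exclude a change in level by a factor of 2.

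**Figure D1:**
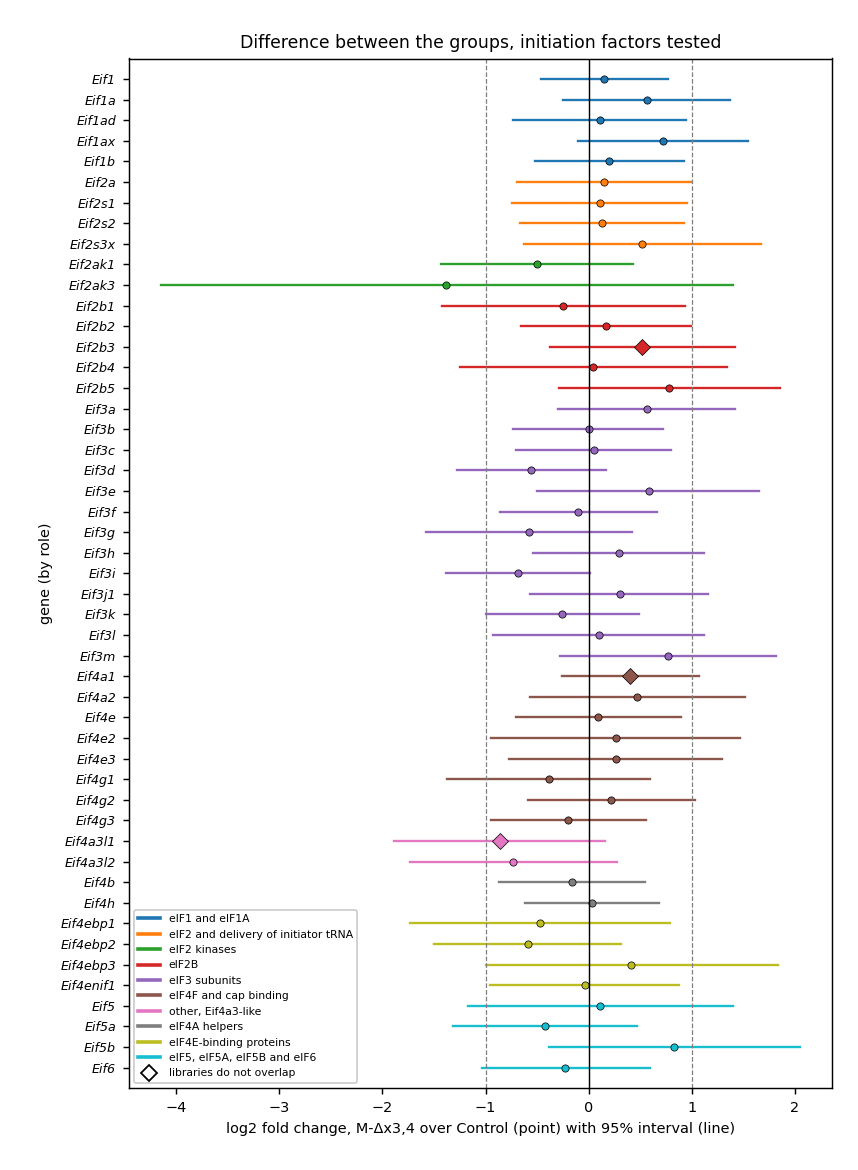
Log2 fold change of each of the 49 initiation factor genes tested (point), M-Δx3,4 over control, with its 95% interval from edgeR's quasi-likelihood fit (line), coloured by role, and dashed lines at -1 and 1. Every interval crosses 0, and diamonds mark the 3 genes whose libraries did not overlap (Eif2b3, Eif4a1 and Eif4a3l1).

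Libraries of the 2 groups did not overlap in 3 of 49 members (6.12%), against 8.44% of all genes tested. These were Eif4a1 and Eif2b3, higher in every M-Δx3,4 library, and Eif4a3l1, lower in every one. For each the exact permutation test of 3 against 3 gave p = 0.1 (two-sided), the smallest it can give.

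The members varied widely within the control group, as did the genes tested in general. The highest control library exceeded the lowest by more than 2-fold in 30 of 49 members, and the highest M-Δx3,4 library exceeded the lowest by that much in 12. Over all genes tested the shares were 62.6% and 41.4%. In 47 of 49 the range of the control libraries was wider than the difference between the group means, a count not made over all genes. Leaving out control replicate 1 turned the count of members with an unadjusted p under 0.05 from 0 into 14 of 49 (28.6%), 11 higher and 3 lower in M-Δx3,4. The share of all genes rose with it, from 3.97% to 16.0%. The smallest adjusted p of a member was then 0.156 (edgeR, Eif2s3x). Without any 1 of the other 5 libraries, between 0 and 2 members were called.

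**Figure D2:**
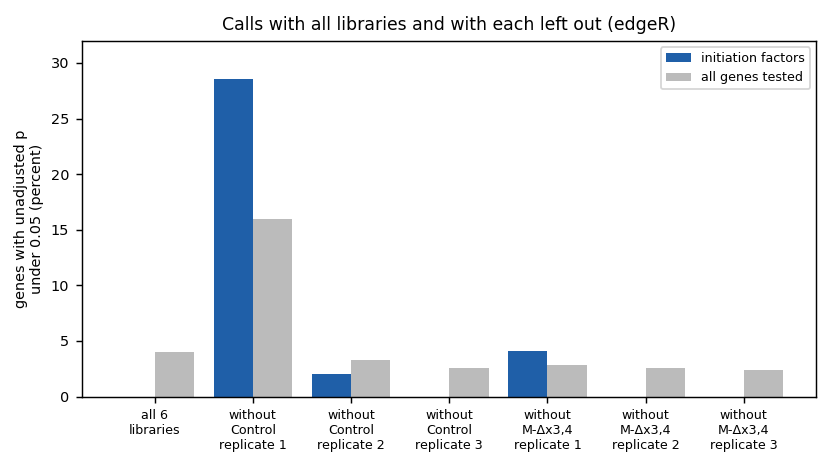
Percentage of genes with an unadjusted p under 0.05 (vertical axis, edgeR's quasi-likelihood test) with all 6 libraries and with each left out in turn, for the initiation factors (blue, 49 genes) and for all genes tested (grey). Without control replicate 1 the shares were 28.6% and 16.0%.

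The 14 called without control replicate 1 were Eif1a, Eif1ax, Eif2s3x, Eif3a, Eif3e, Eif3j1, Eif3m, Eif4a2, Eif4e2, Eif4g2 and Eif5, with log2 fold changes above 0, and Eif3d, Eif3g and Eif3i, with log2 fold changes below 0. The range of the 11 was 0.72 (Eif4g2) to 1.58 (Eif2s3x), and that of the 3 was -0.94 (Eif3g) to -0.72 (Eif3d). Since 1 library decided these calls, they are given as values and not as differences between the genotypes.

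**Figure D3:**
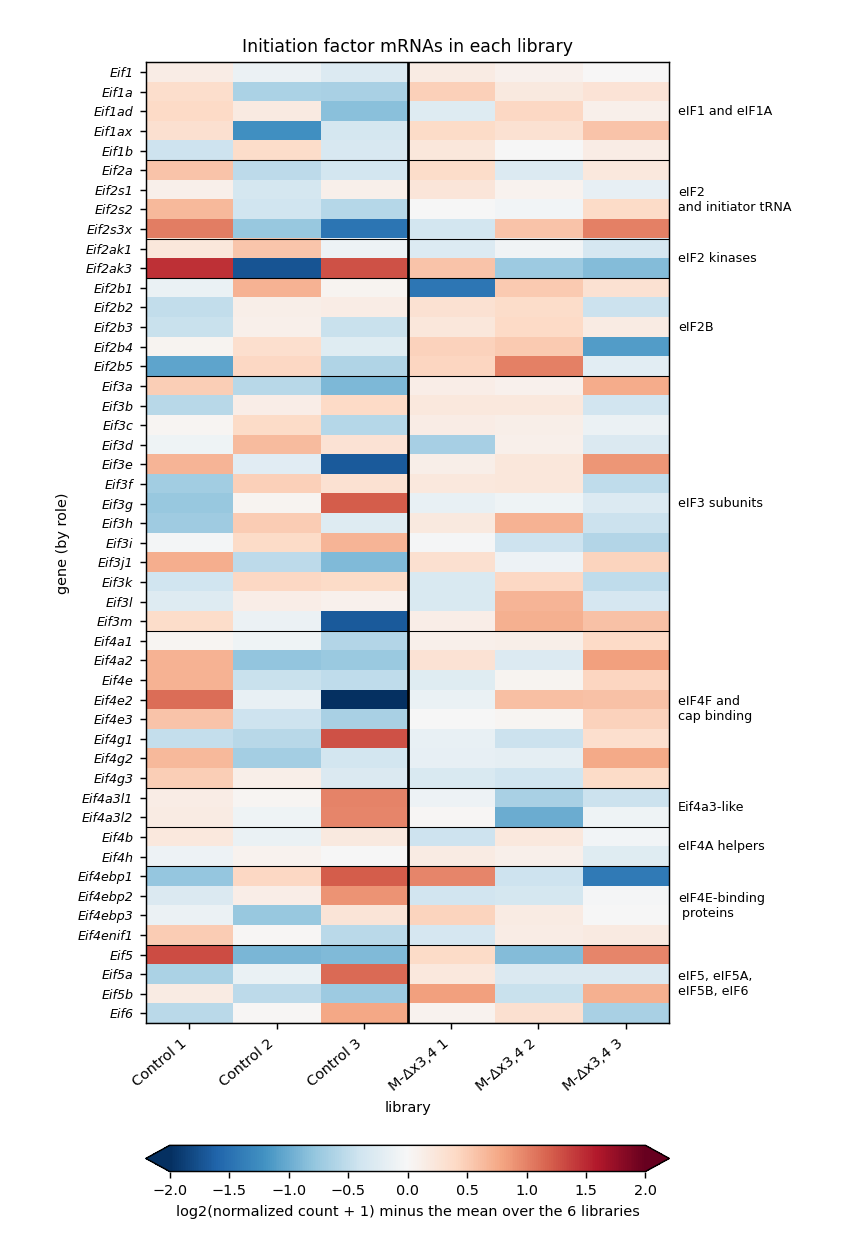
Heat map of the 49 initiation factor genes (rows, by role) in the 6 libraries (columns), coloured by log2(normalized count + 1) minus the gene's mean over the libraries. Control replicates 1 and 3 hold most of the deep colours, often in opposite directions, as for Eif4e2, Eif3e and Eif2s3x (red in control 1, blue in control 3) and for Eif4g1, Eif3g and Eif5a (the reverse).

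Cap-binding and eIF4F genes had the highest summed count of all roles in every library but control replicate 2, where they summed to 4379.0 against 4873.5 for the eIF3 subunits. Most of the sum was Eif4g2, which encodes an eIF4G relative (DAP5) that lacks the eIF4E-binding region. Eif4g2 (ENSMUST00000162415, chromosome 7, positions 111067501 to 111072691, minus strand, 3′ UTR region) had 8112.7, 3214.3 and 4008.3 normalized counts in control and 4604.2, 4560.9 and 8704.3 in M-Δx3,4 libraries. Control replicate 1 and M-Δx3,4 replicate 3 stood about together, well above the other 4. The log2 fold change was 0.22 (SE 0.38, unadjusted p = 0.570 in edgeR). This gene alone held 0.11% to 0.297% of the counts on the representing transcripts of all genes tested. All members together held 0.527% ± 0.0866 of them in control and 0.562% ± 0.0607 in M-Δx3,4 BMDMs (SD, n = 3 each, exact permutation test, two-sided, p = 0.5). Without Eif4g2 the shares were 0.351% ± 0.00621 and 0.357% ± 0.0195 (exact permutation p = 0.7), so the sum of the other members varied little between libraries while single members varied more than 2-fold.

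Eif4a1 (ENSMUST00000163666, chromosome 11, positions 69666687 to 69667472, minus strand, 3′ UTR region) encodes the main eIF4A helicase. It had 477.7, 434.2 and 308.6 normalized counts in control and 497.9, 504.0 and 613.7 in M-Δx3,4 libraries. The groups did not overlap, though M-Δx3,4 replicate 1 lay close above control replicate 1, and the log2 fold change of 0.40 (SE 0.31, unadjusted p = 0.215 in edgeR) did not pass the test. Across the fits that dropped a library it lay between 0.25 and 0.53. Its relative Eif4a2 had 67.4, 23.5 and 24.4 in control and 50.9, 34.0 and 74.1 in M-Δx3,4 libraries (log2 fold change 0.47, SE 0.49). Control replicate 1 was high there as well, and without it the value was 1.15 (unadjusted p = 0.0209, edgeR).

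Eif4e, the cap-binding protein itself, had 550.9, 250.3 and 240.2 normalized counts in control and 289.5, 355.4 and 462.3 in M-Δx3,4 libraries. Control replicate 1 was above every other library, and the log2 fold change was 0.09 (SE 0.38). Its relatives behaved alike in that replicate. Eif4e2, which encodes a cap-binding protein known as a repressor of translation, had 140.6, 58.2 and 15.1 in control and 58.7, 99 and 97.8 in M-Δx3,4 libraries. Eif4e3 had 31.4, 15.3 and 12.8 against 20.5, 21.4 and 29.0. Neither passed the test, with a log2 fold change of 0.26 for both (SE 0.57 and 0.48).

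The eIF4G scaffolds went different ways within the control group. Eif4g1 had 143.0, 135.9 and 486.1 normalized counts in control and 180.0, 148.6 and 253.7 in M-Δx3,4 libraries, so control replicate 3 was the high one. Eif4g3 had 324.3, 247.3 and 186.8 against 184.9, 173.8 and 300.3, with control replicate 1 the highest. The log2 fold changes were -0.39 (SE 0.46) for Eif4g1 and -0.20 (SE 0.35) for Eif4g3, and without control replicate 3 that of Eif4g1 was 0.49. The helicase helpers were the steadiest group. Eif4h had 338.2, 382.1 and 358.5 in control and 406.9, 388.4 and 307.2 in M-Δx3,4 libraries (log2 fold change 0.03, 95% interval from -0.62 to 0.68). Eif4b had a log2 fold change of -0.16 with an interval from -0.87 to 0.54.

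**Figure D4:**
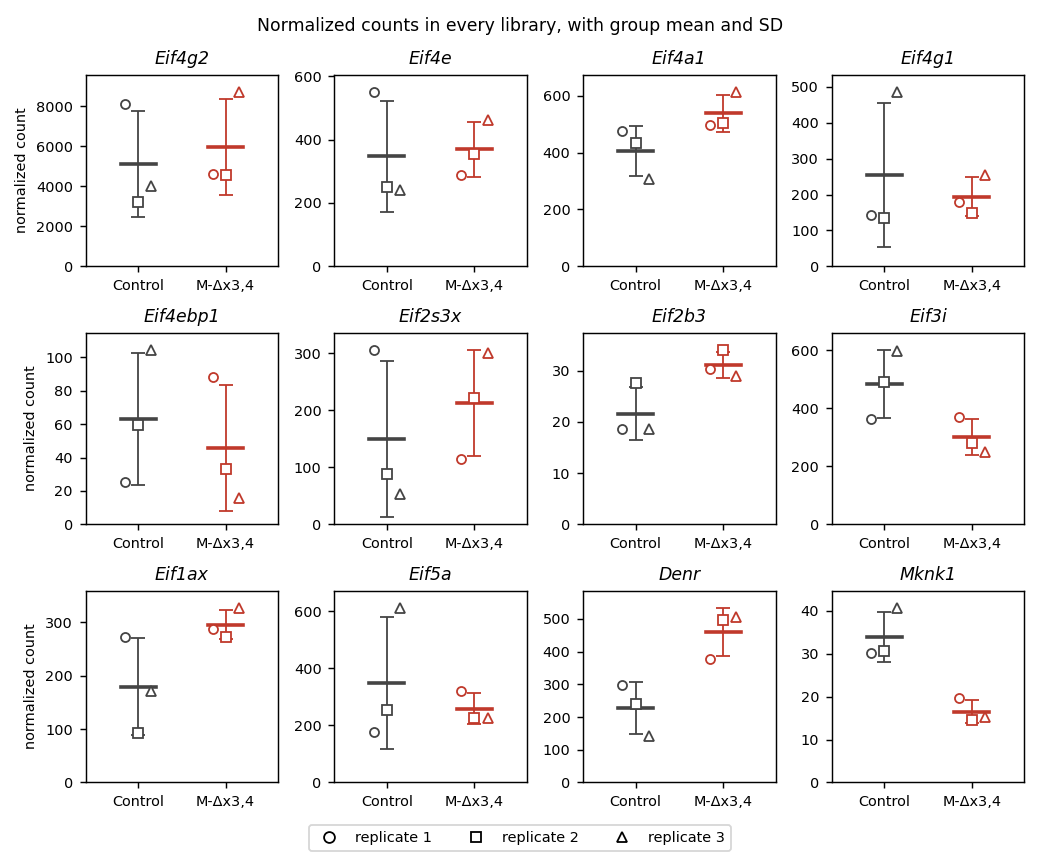
Normalized counts (vertical axes, each starting at 0) of 10 initiation factors and of Denr and Mknk1 in every library, with the group mean (bar) and SD (whisker), control in grey and M-Δx3,4 in red, and symbols for replicates 1 to 3. Control libraries span a wide range for Eif4g2, Eif4g1, Eif2s3x, Eif4ebp1 and Eif5a, while Denr and Mknk1 separate the groups.

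The 4E-binding proteins compete with eIF4G for eIF4E unless they are phosphorylated. Eif4ebp1 (ENSMUST00000033880, chromosome 8, positions 27275112 to 27276923, plus strand) had 25.6, 59.3 and 104.4 normalized counts in control and 88.0, 33.0 and 16 in M-Δx3,4 libraries. Both groups spanned several fold and overlapped, with a log2 fold change of -0.47 (SE 0.59, unadjusted p = 0.437 in edgeR). Leaving out M-Δx3,4 replicate 1 gave -1.37 (unadjusted p = 0.045, adjusted p = 0.999), and leaving out control replicate 3 gave 0.10. Eif4ebp2 had 32.5, 43.9 and 75.4 against 30.3, 31.1 and 39.0, with control replicate 3 again the highest (log2 fold change -0.59, SE 0.43). Eif4ebp3 was scarce, at 7.0, 4.1 and 9.3 against 10.8, 8.7 and 7.6. Eif4enif1, whose product carries eIF4E to the nucleus, had 46.5, 32.7 and 22.0 against 25.4, 35.9 and 36.7 (log2 fold change -0.04, SE 0.43).

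eIF2 is a trimer whose alpha subunit, encoded by Eif2s1, is the target of the stress kinases. Eif2s1 had 39.5, 28.6 and 39.4 normalized counts in control and 44.0, 38.8 and 32.9 in M-Δx3,4 libraries (log2 fold change 0.11, SE 0.40). The beta subunit gene Eif2s2 had 398.7, 193.1 and 171.7 against 253.3, 246.6 and 332.4 (log2 fold change 0.13, SE 0.37). In both genes the groups overlapped, and for Eif2s2 control replicate 1 was the highest of all. Eif2a, which encodes a separate factor able to bind initiator tRNA, had 140.6, 65.4 and 73.1 against 121.3, 77.7 and 109.3.

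The gamma subunit is encoded by Eif2s3x on the X chromosome, with a functional copy on the Y. Eif2s3x had 305.7, 87.9 and 53.4 normalized counts in control and 115.4, 222.4 and 300.3 in M-Δx3,4 libraries (log2 fold change 0.52, SE 0.54, unadjusted p = 0.354 in edgeR). Control replicate 1 was the highest and control replicate 3 the lowest of the 6. The Y copy, Eif2s3y, had 0, 14.3 and 0 in control and 8.8, 6.8 and 17.6 in M-Δx3,4 libraries, and the Y-linked list summed to 1.2, 32.7 and 3.5 against 31.3, 54.4 and 56.6. The 2 control libraries without Eif2s3y reads were the highest and the lowest in Eif2s3x. Other Y-linked genes separated the groups. Uty had 0, 1.0 and 1.2 in control against 6.8, 6.8 and 11.5 (log2 fold change 3.31, unadjusted p = 0.00786 in edgeR, adjusted p = 0.985). Ddx3y had 1.2, 14.3 and 0 against 14.7, 40.8 and 25.2 (2.30, unadjusted p = 0.0145 in edgeR, adjusted p = 0.985). Y-linked counts were unevenly spread over the groups, so an effect of sex and one of genotype cannot be told apart here. Whether the sex of the animals bears on the comparison, for Eif2s3x or any other gene, was not tested.

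The eIF2 kinase genes had low counts. Eif2ak1, the heme-regulated kinase, had 26.7, 33.7 and 20.9 normalized counts in control and 18.6, 21.4 and 17.6 in M-Δx3,4 libraries (log2 fold change -0.50, SE 0.44, unadjusted p = 0.269 in edgeR). Eif2ak3, the kinase PERK of the endoplasmic reticulum, had 8.1, 0 and 7.0 against 3.9, 1.0 and 0.8, and its 95% interval ran from -4.15 to 1.40. Eif2ak4, the amino acid sensor GCN2, had at most 3.9 and was not tested.

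eIF2B recharges eIF2 with GTP. Its gamma subunit gene Eif2b3 (ENSMUST00000070610, chromosome 4, positions 117086693 to 117087094, plus strand, 3′ UTR region) had 18.6, 27.6 and 18.6 normalized counts in control and 30.3, 34.0 and 29.0 in M-Δx3,4 libraries. Every M-Δx3,4 library was above every control library, by a small margin at the nearest pair. The log2 fold change of 0.52 (SE 0.42, unadjusted p = 0.236 in edgeR) stayed between 0.42 and 0.74 with each library left out, and passed the test in none of these fits. Eif2b5, the catalytic epsilon subunit, had the largest log2 fold change of the complex (0.78, SE 0.50) and overlapping libraries, at 11.6, 33.7 and 16.2 against 34.2, 51.5 and 21.4. Without control replicate 2 its value was 1.34 (unadjusted p = 0.0355, edgeR). Eif2b2, the most abundant of the complex by counts, had 53.5, 81.7 and 83.5 against 92.9, 97.1 and 55.8, and Eif2b1 and Eif2b4 had log2 fold changes of -0.25 and 0.04.

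eIF3 is a scaffold of many subunits, and 13 of its 14 member genes were tested, 7 with a log2 fold change above 0 and 6 below (median 0.05, range -0.69 to 0.77). Eif3i, a subunit with a propeller of WD repeats, came nearest to the threshold of all members. It had 362.6, 489.4 and 597.5 normalized counts in control and 368.8, 281.6 and 249.1 in M-Δx3,4 libraries. Only M-Δx3,4 replicate 1 reached above the lowest control library. The log2 fold change was -0.69 (SE 0.33, unadjusted p = 0.0524 in edgeR, 95% interval from -1.38 to 0.01), and DESeq2 gave an unadjusted p = 0.0381. Eif3f, the subunit with the most counts, had 721.8, 1635.7 and 1439.8 against 1351.8, 1365.3 and 824.6, so control replicate 1 and M-Δx3,4 replicate 3 were the low ones.

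Within eIF3 the control libraries divided the subunits. By normalized count, Eif3a (233.6, 112.4 and 88.2), Eif3e (93.0, 49.0 and 17.4), Eif3j1 (463.7, 193.1 and 150.8) and Eif3m (46.5, 32.7 and 10.4) were highest in control replicate 1 and lowest in control replicate 3. Eif3b (344.0, 557.8 and 667.1), Eif3g (33.7, 60.3 and 135.7) and Eif3i were the reverse. Levels per length, for which the authors' TPM values on the representing transcripts were used, ran among the 13 tested subunits in control BMDMs from 3.42 ± 0.304 TPM for Eif3l to 186 ± 44.0 TPM for Eif3k (SD, n = 3), although the subunits act in 1 complex. A 3′ read count does not grow with transcript length, so division by the length of a short counted region raises TPM, and the region of Eif3k was 249 bases long.

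eIF1 and eIF1A guide the scanning subunit to the right codon. The 5 genes placed with them by symbol all had log2 fold changes above 0, from 0.11 (Eif1ad) to 0.72 (Eif1ax). None had an unadjusted p under 0.05 in edgeR. Eif1 was the most abundant, with 1951.5, 1614.3 and 1447.9 normalized counts in control and 1968.1, 1853.7 and 1757.7 in M-Δx3,4 libraries (log2 fold change 0.15, 95% interval from -0.46 to 0.77). Its level per length was 135 ± 29.5 TPM in control and 152 ± 11.2 TPM in M-Δx3,4 BMDMs (SD, n = 3), second to Eif3k among the members in control. Eif1ax, one of the eIF1A genes, had 273.1, 93.0 and 171.7 normalized counts against 287.6, 272.9 and 326.3. The lowest M-Δx3,4 library lay below the highest control library by a margin of under 1 count, and the log2 fold change was 0.72 (SE 0.38, unadjusted p = 0.0795 in edgeR). limma-voom gave 0.86 (unadjusted p = 0.0357, adjusted p = 0.945).

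Of the factors of subunit joining and beyond, Eif5a, whose product carries the amino acid hypusine and acts in elongation and termination, had 177.8, 252.4 and 610.2 normalized counts in control and 320.8, 227.2 and 227.0 in M-Δx3,4 libraries. Eif6, which keeps the large subunit from joining too early, had 265.0, 390.3 and 657.8 against 401.0, 477.7 and 243.8. In both, control replicate 3 was the highest library and the log2 fold change was below 0 (-0.42, SE 0.42, and -0.23, SE 0.38). Eif5, the GTPase activator of eIF2, was instead highest in control replicate 1, with 109.3, 22.5 and 23.2 against 56.7, 23.3 and 86.4. Eif5b, the GTPase of subunit joining, was scarce, at 13.9, 8.2 and 7.0 against 22.5, 8.7 and 20.6 (log2 fold change 0.83, SE 0.57).

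Eif4a3l1 and Eif4a3l2 are intronless copies similar in sequence to Eif4a3, so reads may be split between them and Eif4a3 and their counts are uncertain. Eif4a3l1 (ENSMUST00000077886, chromosome 6, positions 136329779 to 136330027, plus strand) had 20.9, 19.4 and 38.3 normalized counts in control and 17.6, 11.7 and 13.8 in M-Δx3,4 libraries (log2 fold change -0.86, SE 0.48, unadjusted p = 0.0926 in edgeR). Eif4a3l2 had 29.1, 24.5 and 52.2 against 26.4, 12.6 and 24.5 (-0.73, SE 0.47), and Eif4a3 itself 59.3, 90.9 and 138.1 against 47.0, 55.3 and 65.0 (-0.78, SE 0.40). Control replicate 3 was the highest library in all 3. The copies are not independent of Eif4a3.

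Of the 5 members not tested, Eif4e1b, an eIF4E relative of the germ line, had 0 counts in every library, which allows up to 3 counts in each. Eif2d had at most 4.1 normalized counts, Eif5a2 at most 3.5, Eif3j2 at most 3.1 and Eif2ak4 at most 3.9. No fold change is given for them.

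The contrast between control replicates 1 and 3 was compared with the make-up of the 3′ UTR in the 32 members with a mean above 50 normalized counts. The log2 ratio of control replicate 1 over control replicate 3 ran from -1.99 (Eif4ebp1) to 3.14 (Eif4e2), with 11 above 1 (34.4%) and 5 below -1 (15.6%). Over all 4723 genes with such a mean the shares were 21.6% and 16.0%. The median ratio was 0.52 for the members and 0.05 for all genes. Across these 32 members the ratio fell with the GC content of the annotated UTR (Spearman's rho -0.56, Pearson's r -0.57) and was larger for longer UTRs (rho 0.55). Across 4147 genes at the same level the values were -0.56 and -0.42 for GC and 0.37 for length. The genes share both libraries and are not independent replicates, so these are descriptions with no test. Eif4g1, with 59.9% GC, stood at -1.76, while Eif3e, with 27.1%, stood at 2.35. For these and some other members the GC is that of a protein-coding transcript other than the one counted. The members at the ends of the range lay nearer the middle in GC, with 48.2% for Eif4e2 and 43.5% for Eif4ebp1. In the direction of the relation to GC and length the initiation factors followed the whole table. What separates the 2 libraries was not tested.

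**Figure D5:**
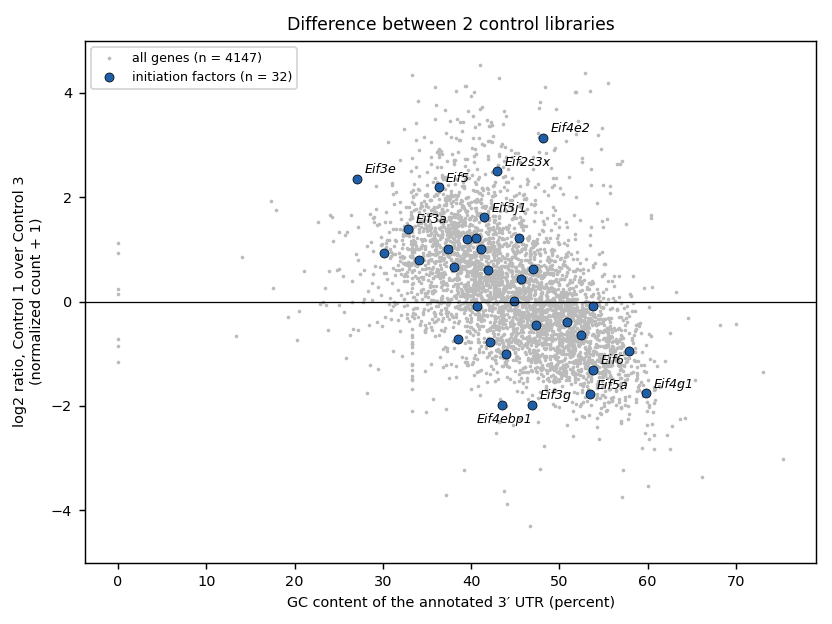
Log2 ratio of control replicate 1 over control replicate 3 (normalized count + 1, vertical axis) against the GC content of the annotated 3′ UTR (percent, horizontal axis) for the 32 initiation factors (blue) and 4147 genes (grey) with a mean above 50, of which 15 genes lie below the axis and are not drawn. The blue points run from upper left to lower right within the grey cloud.

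Deviations were shared across groups as well as within them. In 14 of the 49 members control replicate 1 was the highest control library and M-Δx3,4 replicate 3 the highest M-Δx3,4 library (28.6%), against 21.4% of all genes tested. In 10 members these were control replicate 2 and M-Δx3,4 replicate 2 (20.4%, against 10.4% of all genes). Eif4g2, Eif4e, Eif2s2 and Eif2s3x were of the first kind, and Eif3f, Eif3h and Eif3k of the second.

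Counting regions nested in each other allowed 2 members to be divided within the 3′ UTR. For Eif4e on chromosome 3, the region of ENSMUST00000029803 (positions 138555505 to 138559945, plus strand) contains the proximal region of ENSMUST00000200239 (138555941 to 138556463). The region called proximal begins after the start of the longer one, so the rest covers bases on both sides of it. The proximal region held 39.2% of the reads in control replicate 1 (186 of 474, exact 95% interval 34.8% to 43.8%), 55.5% in control replicate 2 and 72.5% in control replicate 3 (150 of 207, 65.8% to 78.4%). In the M-Δx3,4 libraries it held 74.0%, 62.0% and 54.7%. The intervals cover counting error only, and those of control replicates 1 and 3 do not meet. The group means were 55.7% ± 16.7 and 63.6% ± 9.7 (SD, n = 3, exact permutation test, two-sided, p = 0.5). In normalized counts the proximal region had 216.2, 139.0 and 174.0 in control and 214.2, 220.4 and 253.0 in M-Δx3,4 libraries, and the rest of the region had 334.7, 111.4 and 66.1 against 75.3, 135.0 and 209.4. The high Eif4e count of control replicate 1 was therefore mostly in reads outside the proximal region, and on which side of it was not counted.

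Eif4g2 did not show this. Its proximal region (ENSMUST00000161051, positions 111071683 to 111072691) held 97.7%, 97.8% and 98.8% of the reads in control and 97.1%, 97.5% and 98.4% in M-Δx3,4 libraries (exact permutation p = 0.5), so the rise of Eif4g2 counts in control replicate 1 and M-Δx3,4 replicate 3 lay in the proximal part.

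At the level of transcripts, 167 of the 343 member transcripts passed the filter, holding 128 different sets of counts. Of these, 1 had an unadjusted p under 0.05, against 4.13% of all 32475 transcripts tested. It was a minor transcript of Eif3a (ENSMUST00000238125, chromosome 19, positions 60761590 to 60762080), with 8.1, 5.1 and 4.6 normalized counts in control and 9.8, 14.6 and 26.7 in M-Δx3,4 libraries. The groups did not overlap, and the log2 fold change was 1.51 (SE 0.61, unadjusted p = 0.0265 in edgeR, adjusted p = 0.985). The main Eif3a transcript, which had over 10 times the counts, had a log2 fold change of 0.56 (SE 0.40). Of the 49 representing transcripts, GENCODE lists 40 as protein coding, 4 as retained intron, 4 as targets of nonsense-mediated decay and 1 as a processed transcript. Among the 9 that are not protein coding are those of Eif4g1, Eif4a2, Eif6, Eif3k and Eif3h, and a count on such a transcript is not proof of that RNA form, since other transcripts of the gene can share the counted region.

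Among 26 other regulators of initiation that are not Eif genes, 25 were tested, 1 rose and 1 fell at an unadjusted p under 0.05, where 3.97% of all genes were called. Denr, which with Mcts1 forms a factor of reinitiation and ribosome recycling, had 298.7, 239.1 and 142.7 normalized counts in control and 376.6, 497.2 and 506.7 in M-Δx3,4 libraries. Every M-Δx3,4 library was above every control library. The log2 fold change was 1.02 (SE 0.35, unadjusted p = 0.00999 in edgeR, adjusted p = 0.985), which passed the threshold of the study. It lay between 0.78 and 1.26 when a library was dropped, with an unadjusted p under 0.05 in all 6 of these fits and in the 8 other fits at transcript level. The adjusted p of Denr was at least 0.581 in those 8 fits, and its lowest in any fit was 0.159. Mcts1 had 575.3, 425.0 and 165.9 against 322.8, 525.3 and 489.1 (log2 fold change 0.20, SE 0.41).

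Mknk1, one of the kinases that phosphorylate eIF4E, had 30.2, 30.7 and 40.6 normalized counts in control and 19.6, 14.6 and 15.3 in M-Δx3,4 libraries. Every M-Δx3,4 library was below every control library, with a log2 fold change of -1.03 (SE 0.43, unadjusted p = 0.0296 in edgeR, adjusted p = 0.985). Mknk1 thus passed the threshold of the study as well. The unadjusted p was under 0.05 in 3 of the 6 fits with a library left out, and was lost without control replicate 3, M-Δx3,4 replicate 2 or M-Δx3,4 replicate 3, with values from -1.18 to -0.87. In the 8 other fits at transcript level it was under 0.05 in 6, and was lost in DESeq2 and with no filter, with values from -1.07 to -1.0. Its paralog Mknk2 had 11.6, 9.2 and 17.4 against 14.7, 19.4 and 6.1. Pabpc1, the poly(A)-binding protein that joins the mRNA tail to eIF4G, had 339.4, 307.5 and 351.5 against 510.6, 466.1 and 553.3. Its groups did not overlap, and its log2 fold change of 0.62 (SE 0.30, unadjusted p = 0.0567 in edgeR) did not pass the test. Rptor and Dhx29 were the other 2 of the 5 genes of the list whose libraries did not overlap, both lower in M-Δx3,4 (log2 fold changes -0.99 and -0.67), where 8.44% of all genes tested did not overlap. Of the 10 elongation and release factors none had an unadjusted p under 0.05, and their log2 fold changes ran from -0.16 to 0.73 (Etf1, unadjusted p = 0.0929 in edgeR).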

How the data were processed

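Bone marrow-derived macrophages from 3 control and 3 M-Δx3,4 samples were profiled by QuantSeq 3′ mRNA sequencing on Ion Proton. The authors mapped reads to mm10 with TopHat2 2.1.1 and Bowtie2 2.3.2 (versions from the submitters' processing notes; the study's methods give another Bowtie2 version) and counted them per 3′ UTR region with metaseqR2, and deposited raw counts. The deposited TPM values were used only for levels per length. How their length was set is not stated in the sources used here. Also deposited were 18 further columns of normalized values per sample and columns of the authors' own p-values, FDR and fold changes, none of which were used. Regions were summed per transcript, scaled by RLE factors, filtered at the median normalized count (4.89) in at least 1 library, and tested with edgeR 4.0.16's quasi-likelihood test (R 4.3.3), with limma 3.58.1 (voom) and DESeq2 1.42.0 as alternatives. The standard error is the log2 fold change divided by the root of its F statistic. Members and lists were chosen with earlier results of these data known. Values in every library are given for members with p under 0.05 or non-overlapping libraries, the eIF4F, 4E-BP, eIF2 and kinase members and the most abundant gene of each role, and for others where the spread within control is described. Library totals were 5852374 to 9008878 counts. A count of 0 allows up to 3 counts. One marker gene fixed in the B cell list is not reported here and was left out of its sum.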

Additional observations from a re-analysis of the deposited data

How the results depend on the processing

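Under TMM scaling and with library totals only, no member had an unadjusted p under 0.05, as in the reported fit. Those higher in M-Δx3,4 numbered 1 (Eif1ax) in limma-voom, with no filter and with a replicate block, and those lower numbered 1 (Eif3i) in DESeq2, with edgeR's filterByExpr and with 1 transcript per gene in the fit. Libraries did not overlap in 5 members with 1 transcript per gene and in 5 with the different regions of a gene summed, against 8.35% and 8.46% of all genes. With each library left out in turn, the members higher ran from 0 to 11, those lower from 0 to 3, those past the study's threshold from 0 to 8 and those that did not overlap from 6 to 25, each with its highest value without control replicate 1, a fit with 2 libraries in 1 group. Over all genes that fit called 16.0%, put 11% past the study's threshold and left 32.2% without overlap, against 2.42% to 3.30%, 1.97% to 3.02% and 15.2% to 16.5% without any other library. The median log2 fold change of the members was 0.08 to 0.15 in the other fits and 0.01 to 0.11 with a library left out.

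The direction turned in at least 1 fit for 14 of the 26 members named by the rule. Eif4enif1 turned in limma-voom (0.00) and with summed regions (0.10). With a library left out the ranges of log2 fold change were -0.06 to 0.57 for Eif2a, -0.02 to 0.38 for Eif2b2, -0.04 to 0.20 for Eif2s1, -0.08 to 0.60 for Eif2s2, -0.39 to 0.12 for Eif3f, -0.11 to 0.59 for Eif4e, -0.21 to 1.2 for Eif4e2, -1.37 to 0.10 for Eif4ebp1, -0.26 to 0.25 for Eif4enif1, -0.70 to 0.49 for Eif4g1, -0.17 to 0.72 for Eif4g2, -0.50 to 0.02 for Eif4g3, -0.05 to 0.14 for Eif4h and -0.49 to 0.20 for Eif6. The cause was not tested.

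Same-numbered libraries of the 2 groups had correlations of their deviations of -0.213, 0.537 and -0.309 over 4723 genes, so the numbers were not taken as a pairing. Control replicate 1 with M-Δx3,4 replicate 3 had 0.542 and control replicate 3 with M-Δx3,4 replicate 1 had 0.28, and no label pairs these libraries. The replicate block moved the members called from 0 to 1 and the share of all genes from 3.97% to 2.83%. Counts under about 10, as for Eif2ak3, limit the precision of those members.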
